A study of Mus musculus with 12 samples.

Results

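Laminins and the proteins that tie them into the basement membrane were followed as a family of 10 genes in mouse hearts: Lama2, Lama4, Lama5, Lamb1, Lamb2, Lamc1, Nid1, Nid2, Hspg2 and Agrn. The 10 were picked out by gene name, from a family chosen with earlier results of these data known, among the 18604 genes of the 4 deposited tables, of which 17354 were in every table. All 10 were in every table, and all 10 passed the filter on low values in each comparison. The study had 12 heart libraries of male C57Bl/6J mice aged 12 weeks, 3 in each of 4 groups: BCAA-free TAC, BCAA-free sham, control diet TAC and control diet sham. Transverse aortic constriction (TAC) narrows the aorta and loads the left ventricle with pressure, and sham surgery leaves the aorta open. The BCAA-free diet had no branched-chain amino acids at all, while the control diet held every essential amino acid with the branched-chain ones at chow-like levels. Each diet began 4 days before surgery and went on until the hearts were taken 1 week after it, so the control groups were on a study diet too. The labels name the tissue as heart, without a chamber, and do not say whether the libraries of a group came from separate animals, so each p-value speaks of the spread between libraries, which could be technical.

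Basement membranes are thin sheets of matrix around every cardiomyocyte and under the endothelium of every vessel. Laminins are built from an alpha, a beta and a gamma chain and polymerise on the cell surface, where integrins and dystroglycan hold them. Type IV collagen forms a second network, and nidogens and the heparan sulfate proteoglycans perlecan and agrin join it to the laminin sheet.

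Promoter sequence is shown for 4 of the genes. Nid1 and Hspg2 are a pair that was lower together on the BCAA-free diet in sham hearts, and Lama5 and Lamb2 are a pair that did not pass the test there. RefSeq start sites of GRCm38.p6 gave windows for 7 of the 10 genes (8 windows, since Agrn had 2), but not for Lama4, Lamc1 and Nid2. Each window holds the 250 bases before the start, and the stretch printed ends where the annotated gene of GENCODE begins. Capitals mark matches on either strand to a GC box (GGGCGG) or a CCAAT box (CCAAT), which do not overlap each other in the stretches shown. The Nid1 stretch is chr13:13437352-13437550 on the plus strand, Hspg2 is chr4:137468553-137468768 on the plus strand, Lama5 is chr2:180225860-180226109 on the minus strand and Lamb2 is chr9:108479612-108479735 on the plus strand.
Nid1: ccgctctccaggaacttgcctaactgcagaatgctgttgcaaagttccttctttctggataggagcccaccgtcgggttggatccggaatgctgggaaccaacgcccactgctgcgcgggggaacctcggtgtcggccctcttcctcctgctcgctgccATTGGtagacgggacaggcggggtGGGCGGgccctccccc
Hspg2: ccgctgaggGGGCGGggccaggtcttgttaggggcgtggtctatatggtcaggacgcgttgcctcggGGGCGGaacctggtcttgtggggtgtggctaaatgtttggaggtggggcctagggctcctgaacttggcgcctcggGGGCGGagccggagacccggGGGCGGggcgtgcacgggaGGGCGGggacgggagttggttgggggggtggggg
Lama5: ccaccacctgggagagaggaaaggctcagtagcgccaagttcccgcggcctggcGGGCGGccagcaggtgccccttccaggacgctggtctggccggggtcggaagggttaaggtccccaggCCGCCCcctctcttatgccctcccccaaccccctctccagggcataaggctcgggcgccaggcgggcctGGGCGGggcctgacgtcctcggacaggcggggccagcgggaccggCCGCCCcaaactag
Lamb2: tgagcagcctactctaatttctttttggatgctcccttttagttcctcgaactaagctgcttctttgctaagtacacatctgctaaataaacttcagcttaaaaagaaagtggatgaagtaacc
Counted over the whole windows of 250 bases, Hspg2 had 5 GC boxes, Lama5 had 4 and Nid1 had 1, with 1 CCAAT box in Nid1. Lamb2 had no match to either motif and a GC content of 43.6%, against 72.4% for Lama5, 70% for Hspg2 and 64.4% for Nid1. Over all 32851 windows, 32.7% held a GC box and 33.8% a CCAAT box, and the median GC content was 52.4%. The letters TGATGNAA, a form of the element bound by the amino acid response factor ATF4, were in 3.45% of all windows and in none of the 8 windows of these genes. These matches describe letters in a window, not sites in use.

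The libraries held between 74206246 and 110452636 reads. All 7 cardiomyocyte markers were measured and summed to 3412501 to 5540599 normalized reads a library, and all 8 endothelial markers were measured. Normalized reads here are reads divided by size factors set jointly over the 12 libraries. The library control diet TAC 3 stood apart in a way that bears on long genes. Its genes with principal transcripts over 12 kb had a median log2 deviation of -0.43 from the mean of the 12 libraries (117 genes), those of 8 to 12 kb had -0.32 and those of 1 to 2 kb had 0.18. In the 11 other libraries the medians of genes over 8 kb lay between -0.09 and 0.14. The 10 genes studied have principal transcripts from 4876 bases (Nid2) to 14176 bases (Hspg2), and their median log2 deviation was -0.28 in control diet TAC 3, against 0.52 and 0.60 in control diet TAC 1 and 2. The part of transcript length in these values was not tested beyond the length-adjusted fits given below. The main limma calls of the 10 genes and the differences of ratios that use control diet TAC 3 are given with it and without it. Correlations, edgeR and DESeq2 calls and most values of partner genes are given with it only. Control diet sham 2 also stood apart: chi-square per gene against the other control diet sham libraries was 177 and 179, against 71.1 between those, and for control diet TAC 3 it was 156 and 167, against 58.5. Structured RNAs summed to 735 to 7202 normalized reads in BCAA-free TAC, 283 to 366 in BCAA-free sham, 298 to 1630 in control diet TAC and 182, 281 and 10661 (sham 2) in control diet sham hearts. Their part in the results was not tested.

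**Figure D1:**
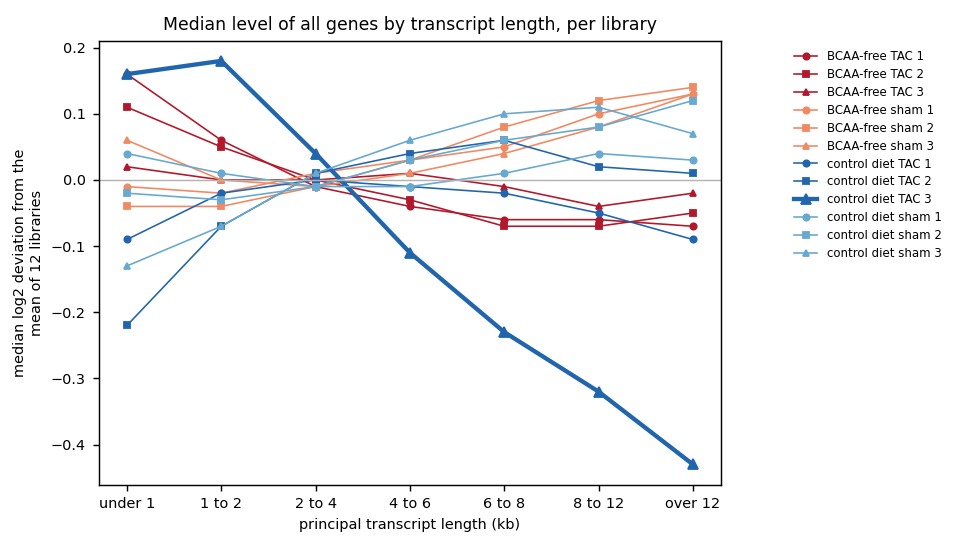
Median log2 deviation of all genes (y axis, from the mean of the 12 libraries) by length class of the principal transcript (x axis, kb), with 1 line per library. Control diet TAC 3, the thick line, runs from 0.18 at 1 to 2 kb down to -0.43 above 12 kb, outside the range of the 11 other libraries above 4 kb.

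Laminin alpha chains set which receptors a laminin binds. Lama2 (ENSMUSG00000019899, chromosome 10, 26980036 to 27619758 on GRCm38), the main alpha chain around muscle fibres, had 9231, 9520 and 10851 normalized reads in BCAA-free TAC, 10379, 9860 and 10275 in BCAA-free sham, 9897, 12695 and 7925 in control diet TAC and 9666, 10384 and 10534 in control diet sham hearts. Its 4 groups overlapped. Lama4 (ENSMUSG00000019846, chromosome 10, 38965515 to 39110188), an alpha chain of vessel walls, had 5642, 5987 and 6687 in BCAA-free TAC, 6266, 5498 and 5862 in BCAA-free sham, 9579, 9906 and 5486 in control diet TAC and 7071, 6896 and 7450 in control diet sham hearts. BCAA-free sham lay wholly below control diet sham, and control diet TAC 1 and 2 lay above all other libraries while TAC 3 was the lowest of the 12. Lama5 (ENSMUSG00000015647, chromosome 2, 180176373 to 180225859), an alpha chain of mature endothelium, had 9609, 11432 and 10398 in BCAA-free TAC, 14048, 14087 and 16644 in BCAA-free sham, 12847, 10573 and 5392 in control diet TAC and 14486, 10464 and 13396 in control diet sham hearts. On the BCAA-free diet every TAC library was below every sham library, and on the control diet the surgery groups overlapped.

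Every laminin trimer needs a beta and a gamma chain. Lamb1 (ENSMUSG00000002900, chromosome 12, 31265234 to 31329644) had 7787, 7087 and 8192 normalized reads in BCAA-free TAC, 7381, 8212 and 7875 in BCAA-free sham, 12926, 14125 and 8841 in control diet TAC and 9737, 8193 and 10099 in control diet sham hearts. All 3 control diet TAC libraries were above all BCAA-free TAC libraries. Lamb2 (ENSMUSG00000052911, chromosome 9, 108479736 to 108490530), a beta chain known from nerve-muscle junctions, had 25824, 27137 and 28916 in BCAA-free TAC, 32130, 30005 and 31120 in BCAA-free sham, 30290, 25488 and 23755 in control diet TAC and 29449, 32373 and 32969 in control diet sham hearts. On the BCAA-free diet its TAC and sham libraries did not overlap. Lamc1 (ENSMUSG00000026478, chromosome 1, 153218922 to 153332786), the gamma chain of nearly all laminins, had 14510, 12944 and 15825 in BCAA-free TAC, 12858, 13730 and 13552 in BCAA-free sham, 24398, 27516 and 14360 in control diet TAC and 16999, 14961 and 18321 in control diet sham hearts. Control diet TAC 3 lay among the BCAA-free libraries, and TAC 1 and 2 lay above all of the others.

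Nidogens bridge the laminin gamma chain and type IV collagen. Nid1 (ENSMUSG00000005397, chromosome 13, 13437551 to 13512269) had 10307, 9012 and 10570 normalized reads in BCAA-free TAC, 8153, 8522 and 8662 in BCAA-free sham, 18186, 22293 and 9450 in control diet TAC and 12161, 10324 and 11807 in control diet sham hearts. The 3 BCAA-free sham libraries were the lowest of all 12. Nid2 (ENSMUSG00000021806, chromosome 14, 19751265 to 19811787) had 1481, 1194 and 1516 in BCAA-free TAC, 1167, 1277 and 1116 in BCAA-free sham, 3623, 3798 and 2023 in control diet TAC and 2032, 1750 and 2300 in control diet sham hearts. Every BCAA-free library was below every control diet library, with TAC 3 included. The strand setting of the counting is not given in the sources used here, and annotated exons on the opposite strand overlap Nid2 by 437 bases (Rtraf), Nid1 by 143 bases (Gm48682) and Lama2 by 631 bases (Gm48084), so their reads cannot be told apart there.

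Perlecan and agrin carry heparan sulfate chains, and agrin also binds dystroglycan. Hspg2 (perlecan, ENSMUSG00000028763, chromosome 4, 137468769 to 137570630) had 27906, 23881 and 30082 normalized reads in BCAA-free TAC, 26157, 27277 and 26297 in BCAA-free sham, 49297, 51978 and 26547 in control diet TAC and 34677, 34178 and 41973 in control diet sham hearts. Control diet TAC 1 and 2 were the highest, and TAC 3 lay within the BCAA-free range. Agrn (ENSMUSG00000041936, chromosome 4, 156165290 to 156197488) had 6551, 6312 and 6070 in BCAA-free TAC, 6032, 5949 and 5781 in BCAA-free sham, 6922, 8022 and 4772 in control diet TAC and 6600, 6614 and 7467 in control diet sham hearts. BCAA-free sham lay below control diet sham and below BCAA-free TAC without overlap.

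**Figure D2:**
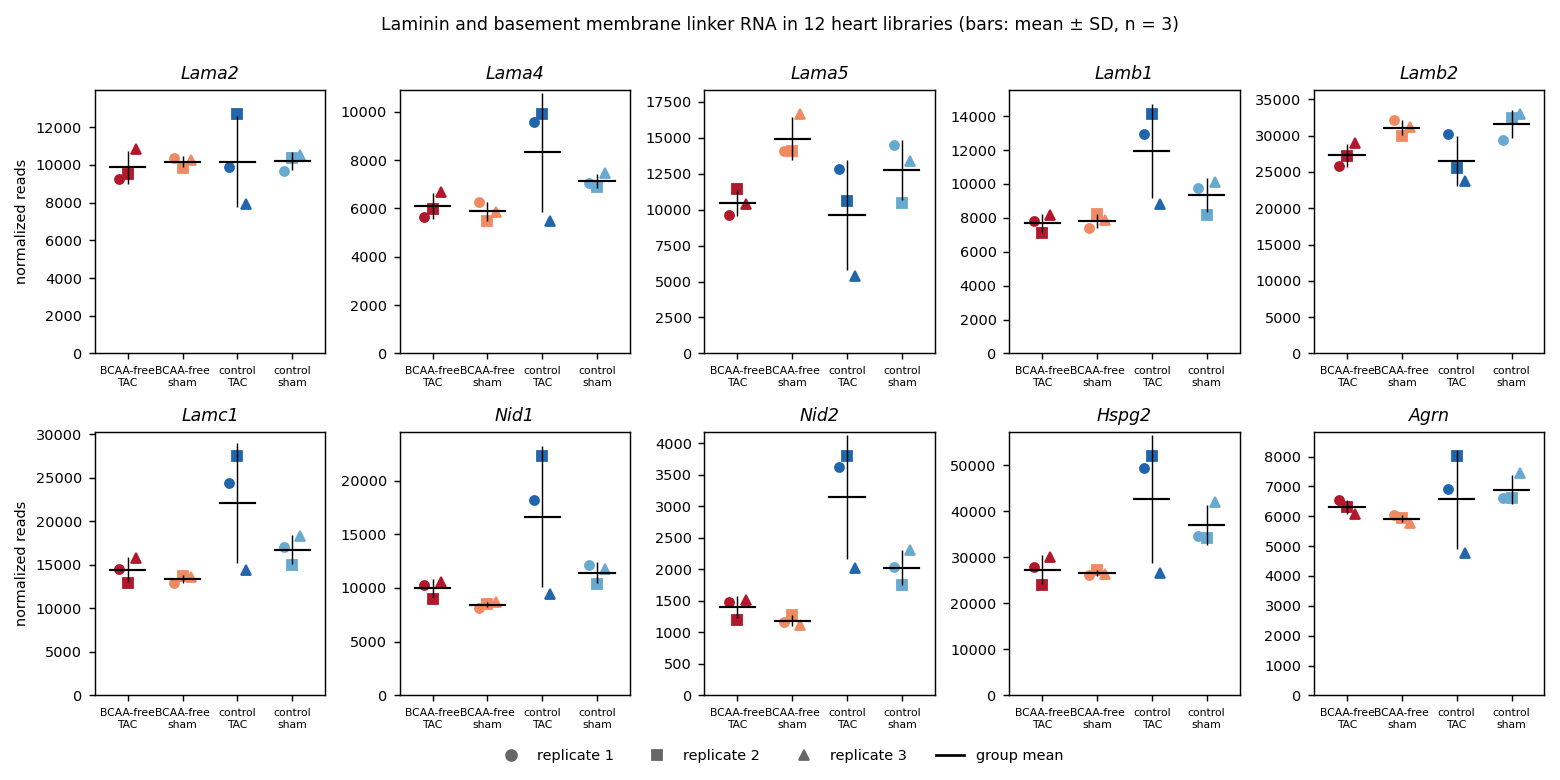
Normalized reads (y axis, from 0) of the 10 genes in each library (points, 1 symbol per replicate number), by group (x axis), with the group mean and SD (n = 3 each). Control diet TAC 3, the triangle, lies below the other control diet TAC libraries in every panel, and all BCAA-free libraries lie below all control diet libraries for Nid2 (1516 or less against 1750 or more).

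Per kb of principal transcript, the order of the levels in control diet sham hearts was led by Lamb2, with 5613 ± 335 normalized reads per kb (SD, n = 3, as for the other levels). Hspg2 followed with 2606 ± 308, Lamc1 with 2199 ± 222, Nid1 with 1877 ± 160 and Lamb1 with 1681 ± 182. Lama4 with 1181 ± 46.9, Lama5 with 1122 ± 183, Lama2 with 1060 ± 48.3 and Agrn with 1000 ± 72.1 were close to each other, and Nid2 was lowest with 416 ± 56.3. Library values of neighbours in this order overlapped from Lamc1 to Lamb1 and from Lama4 to Agrn, and did not overlap between Lamb2 and Hspg2, Hspg2 and Lamc1, Lamb1 and Lama4, or Agrn and Nid2. Lamb2 was highest and Nid2 lowest in each of the 4 groups. In BCAA-free TAC hearts Lamb2 had 4848 ± 276 and Nid2 had 287 ± 36.3 reads per kb, in BCAA-free sham hearts 5522 ± 189 and 243 ± 16.9, and in control diet TAC hearts 4710 ± 601 and 646 ± 201. Among the alpha chains the balance shifted with group: Lama5 led in BCAA-free sham hearts (1311 ± 131 per kb) and Lama4 in control diet TAC hearts (1377 ± 407 per kb).

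In BCAA-free against control diet sham hearts, perlecan, both nidogens, the gamma chain and the alpha chain Lama4 were lower. The comparison asks what the diet did without pressure overload. Of the 10 genes, 5 fell, where 2.27% of the 17862 genes tested fell and 3.54% changed in either direction (limma, adjusted p under 0.05). Nid2 fell by 0.77 ± 0.0999 on the log2 scale (SE; 0.59 times the control diet level, adjusted p = 0.0063). Hspg2 fell by 0.47 ± 0.0783 (0.72 times, adjusted p = 0.0141) and Nid1 fell by 0.44 ± 0.0677 (0.74 times, adjusted p = 0.0108). Lamc1 fell by 0.32 ± 0.074 (adjusted p = 0.0437) and Lama4 fell by 0.29 ± 0.0623 (adjusted p = 0.0376). These last 2 calls were each kept in only 1 of the 6 fits that left out a library, with adjusted p-values up to 0.183 and 0.129. Hspg2 kept its call in 4 of the 6, and Nid1 and Nid2 in 5 each. Lamb1, with a log2 difference of -0.25 (adjusted p = 0.11), and Agrn, with -0.22 (adjusted p = 0.0783), did not pass, although their groups did not overlap either. In all, 7 of the 10 had no overlap with BCAA-free sham lower, against 12.9% of all genes. Lamb2 (-0.03), Lama2 (-0.01) and Lama5 (0.23, adjusted p = 0.361) made up the rest. The median of the 10 was -0.27, against 0.00 for all genes.

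The same 5 were called by edgeR on the recovered reads, which called 3.92% of all genes. DESeq2 called 7, adding Lamb1 and Agrn, where it called 8.52% of all genes, and the authors' deposited table also had 7 under an adjusted p of 0.05. The length-adjusted fit, chosen after the data were seen, called 6, adding Agrn, where 4.26% of all genes were called. Without BCAA-free sham 1, limma called 0 of the 10 (50 genes in all), with Nid2 at an adjusted p of 0.055, and leaving out any 1 of the 6 libraries gave 0 to 6 of the 10. The 6 were called without control diet sham 2, where Lamb1 joined the 5 (-0.35 ± 0.0676, adjusted p = 0.0177) and 1071 genes were called in all, against 633 with that library. In a fit over all 12 libraries, whose shared spread includes control diet TAC 3, 0 of the 10 passed (149 genes in all), with Nid2 at an adjusted p of 0.0847. The summed endothelial markers also moved, with 70393 to 75874 normalized reads in BCAA-free sham and 79422 to 90565 in control diet sham hearts. Of the 8 endothelial markers, Cdh5 fell by 0.46 ± 0.0955 (adjusted p = 0.0371), Pecam1 had -0.29 (adjusted p = 0.0869), Flt1 had 0.12 and the median was -0.24. Fewer cells of a type and less RNA per cell cannot be told apart in whole-heart RNA, and the part of the endothelial markers in the falls was not tested. Cardiomyocyte sums were higher, with 5041094 to 5540599 in BCAA-free sham and 4442414 to 4871365 in control diet sham hearts, but 0 of the 7 markers passed. Sums of smooth muscle of arteries were lower, with 21480 to 21716 in BCAA-free sham and 23470 to 24738 in control diet sham hearts, and of the 4 markers Smtn alone passed. Sums of the other marker lists overlapped, and the part of the lists that did not overlap was not tested.

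In BCAA-free against control diet TAC hearts, Nid2 and Lamb1 were lower in all libraries. The control diet TAC libraries used here also serve in the control diet comparison of surgeries, so the comparisons are not independent. Of the 10 genes, 2 fell, where 10.5% of the 18039 genes tested fell and 16.8% changed. Nid2 fell by 1.12 ± 0.215 on the log2 scale (0.46 times, adjusted p = 0.00777) and Lamb1 fell by 0.61 ± 0.161 (0.66 times, adjusted p = 0.0304). Nid1 had a log2 difference of -0.65 (adjusted p = 0.126), Hspg2 -0.58 (adjusted p = 0.112), Lamc1 -0.56 (adjusted p = 0.0988) and Lama4 -0.40 (adjusted p = 0.207). Nid2 kept its call whichever of the 6 libraries was left out, with adjusted p-values from 2.31e-06 to 0.0435. Lamb1 kept it only without control diet TAC 3 and had adjusted p-values up to 0.137 otherwise. The median of the 10 was -0.48, against 0.02 for all genes. Lama2, Lama5, Lamb2 and Agrn had log2 differences between -0.02 and 0.22. Lamb1 and Nid2 had groups without overlap, against 19.2% of all genes with BCAA-free TAC lower.

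Without control diet TAC 3, 7 of the 10 fell, where 17.3% of all genes fell and 33.4% changed. Nid2 fell by 1.41 ± 0.106 (0.38 times, adjusted p = 2.31e-06), Nid1 fell by 1.01 ± 0.101 (0.50 times, adjusted p = 2.17e-05) and Hspg2 fell by 0.89 ± 0.0983 (0.54 times, adjusted p = 3.38e-05). Lamc1 fell by 0.84, Lamb1 fell by 0.81, Lama4 fell by 0.67 and Agrn fell by 0.23 (adjusted p = 0.049). The same 7 had no overlap, against 28.3% of all genes. With all libraries and the adjustment for transcript length, 4 of the 10 fell (Lamb1, Lamc1, Nid2 and Hspg2), where 20.1% of all genes were called. The adjustment without control diet TAC 3 called 6, all of the 7 but Agrn, where 33.3% were called. With all libraries DESeq2 called 5, adding Nid1 to those 4, where it called 21.3% of all genes, and edgeR called Lamb1 and Nid2, where it called 17.0%. All 7 macrophage markers were lower as well in the comparison with all libraries, and their sums were 14573 to 19970 normalized reads in BCAA-free TAC against 26039 to 28985 in control diet TAC hearts. Endothelial sums were 71446 to 75205 in BCAA-free TAC and 61416 (TAC 3), 83097 and 87479 in control diet TAC hearts. Cardiomyocyte sums were 5068262 to 5473890 in BCAA-free TAC and 3412501 to 3985170 in control diet TAC hearts, with 3 of 7 markers higher (5 without TAC 3). Mural sums were 99710 to 103692 in BCAA-free TAC and 68846 to 93761 in control diet TAC hearts. The 7 mural markers were split, with Kcnj8 and Abcc9 higher and Cspg4 lower. Without TAC 3, Pdgfrb and Notch3 were lower too. Mesothelial sums (754 to 940 in BCAA-free TAC, 1030 to 1079 in control diet TAC) and lymphocyte sums (760 to 791 in BCAA-free TAC, 1020 to 1490 in control diet TAC) were lower without overlap. Of 5 mesothelial markers, though, Wt1 and Krt8 were lower and Upk3b and Msln higher, with a median log2 difference of 0.86. Without TAC 3, Krt19 was higher too. Of 3 measured lymphocyte markers Ptprc alone passed, lower, and the median was 0.02. The part of these markers was not tested.

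**Figure D3:**
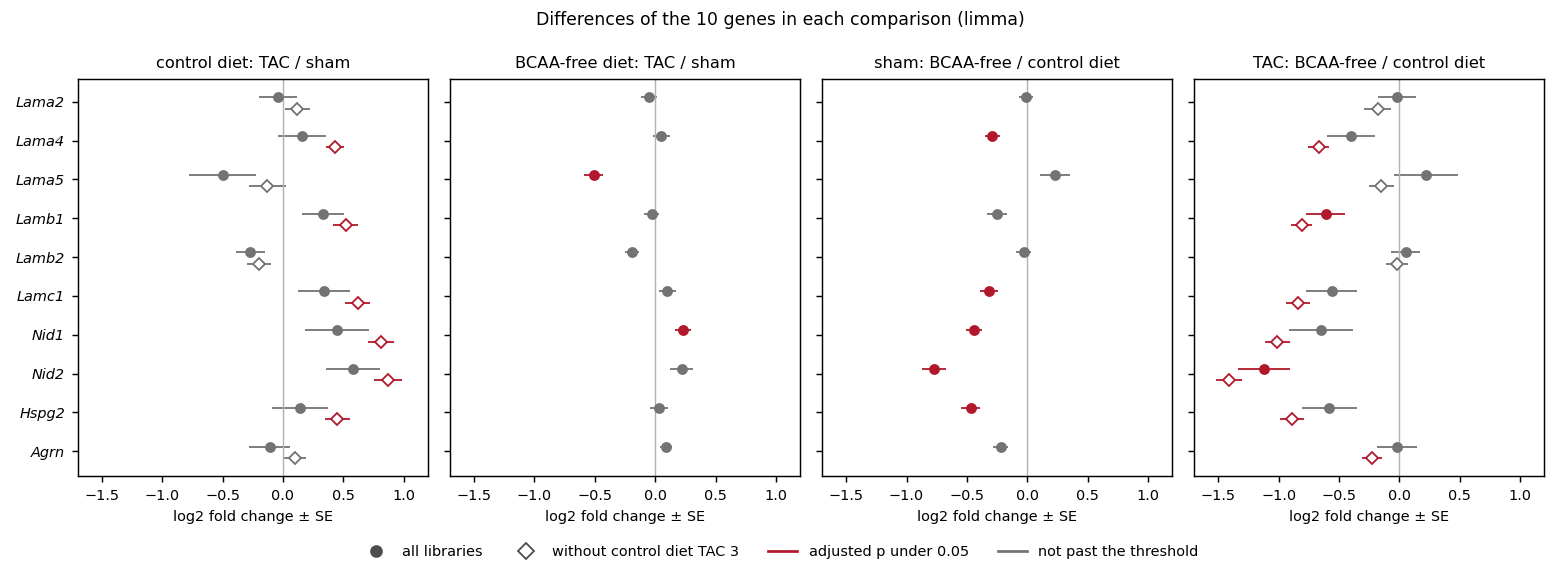
Log2 fold change ± SE (x axis) of the 10 genes (rows) in 4 comparisons (panels), from all libraries (filled circles) and without control diet TAC 3 (open diamonds), red where the adjusted p was under 0.05. In sham hearts 5 genes lie below 0 in red, and in both comparisons with control diet TAC the diamonds of Nid1, Nid2, Lamc1, Lamb1, Lama4 and Hspg2 lie farther from 0 than the circles.

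In TAC against sham hearts on the control diet, no gene of the family passed the test with all libraries. Limma called 0 of the 10, where 14.8% of the 18305 genes tested changed, and 1 had an unadjusted p under 0.05. EdgeR called 0 of the 10, with 2 at an unadjusted p under 0.05, where it called 15.1% of all genes. DESeq2 called 1, Nid2, where it called 19.8%, and the authors' deposited table also had Nid2 alone. Nid2 had a log2 difference of 0.58 ± 0.221 (1.49 times, adjusted p = 0.115), Nid1 0.45 ± 0.264 and Lamc1 0.34 ± 0.216, while Lama5 had -0.50 ± 0.279 and Lamb2 -0.27 ± 0.12. The median was 0.15, against -0.02 for all genes. No gene of the family had groups without overlap, a state that 18.5% of all genes had with TAC higher and 16.3% with TAC lower.

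Without control diet TAC 3, 6 of the 10 rose, where 13.6% of all genes rose and 25.6% changed. Nid2 rose by 0.87 ± 0.115 (1.82 times, adjusted p = 0.00097), Nid1 by 0.81 ± 0.11 (1.75 times, adjusted p = 0.00112) and Lamc1 by 0.62 ± 0.104 (1.54 times, adjusted p = 0.00296). Lamb1 rose by 0.52 ± 0.104 (adjusted p = 0.00625), Hspg2 by 0.45 ± 0.105 (adjusted p = 0.0134) and Lama4 by 0.43 ± 0.0752 (adjusted p = 0.00335). The same 6 had no overlap, against 26.5% of all genes with TAC higher. Lama2 (0.12), Agrn (0.10), Lama5 (-0.13) and Lamb2 (-0.20) did not pass. Leaving out any other library of the 6 called 0 of the 10, and the length-adjusted fit with all libraries also called 0, with 5 at an unadjusted p under 0.05, where 17.0% of all genes were called. That adjustment without control diet TAC 3 called the same 6, where 26.8% were called. Macrophage sums were 26039 to 28985 in control diet TAC and 13819 to 18079 in control diet sham hearts, with TAC 3 at 26039. Cardiomyocyte sums were 3412501 to 3985170 in control diet TAC and 4442414 to 4871365 in control diet sham hearts. Mural sums were 68846 in TAC 3 and 93300 and 93761 in the other TAC libraries, against 109114 to 117941 in control diet sham hearts. Of 7 mural markers Kcnj8 and Abcc9 fell, and without TAC 3 Pdgfrb and Cspg4 rose beside those falls. The median log2 difference of the 7 was -0.17 with all libraries and 0.11 without TAC 3. Mesothelial sums were 1030 to 1079 in control diet TAC and 584 to 892 in control diet sham hearts, and lymphocyte sums were 1020 to 1490 in control diet TAC and 634 to 886 in control diet sham hearts. Of 3 measured lymphocyte markers Ptprc alone passed, higher, and the median log2 difference was -0.21 with all libraries. Endothelial sums overlapped. The part of these markers was not tested. Without control diet sham 2, 0 of the 10 and 1382 genes were called, against 2710 genes with it.

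In TAC against sham hearts on the BCAA-free diet, Lama5 was lower and Nid1 slightly higher. Of the 10 genes, 2 changed, where 7.72% of the 17611 genes tested changed, 3.31% upward and 4.41% downward. Lama5 fell by 0.51 ± 0.0812 on the log2 scale (0.70 times, adjusted p = 0.00379), and it kept this call whichever library was left out, with adjusted p-values up to 0.0295. In the fit of all 12 libraries, whose shared spread includes control diet TAC 3, 0 of the 10 passed, with Lama5 at an adjusted p of 0.383 and Nid1 at 0.702. Nid1 rose by 0.23 ± 0.0646 (1.17 times, adjusted p = 0.0496), a call kept in only 1 of the 6 fits that left out a library, with adjusted p-values up to 0.159. Lamb2 had -0.19 ± 0.0583 (adjusted p = 0.0624) and was called by DESeq2, which called it with Lama5 and Nid1 and called 10.7% of all genes, and Nid2 had 0.22 ± 0.0963 (adjusted p = 0.182). Lama5 and Lamb2 had no overlap with TAC lower, against 14.7% of all genes, and Nid1 and Agrn had none with TAC higher, against 13.4%. Lama2, Lama4, Lamb1, Lamc1 and Hspg2 had log2 differences between -0.05 and 0.10. The median was 0.04, against 0.01 for all genes. EdgeR called Lama5 and Nid1, where it called 8.02% of all genes, and so did the length-adjusted fit, where 5.86% were called. The length-adjusted median of the 10 was 0.17. In that fit 8 of the 10 had an unadjusted p under 0.05 (6 higher, 2 lower), against 4 without the adjustment. Genes of 8 to 12 kb, the class of Lama5 (11388 bases), had median deviations of 0.08 to 0.12 in sham libraries of this diet. Its TAC libraries had medians from -0.07 up to -0.04 for that class. The part of this length trend in the fall of Lama5 was not tested beyond that fit. Endothelial sums lay at 71446 to 75205 in BCAA-free TAC hearts, against 70393 to 75874 in BCAA-free sham hearts, and mural sums at 99710 to 103692 in BCAA-free TAC hearts, against 110754 to 118122 in BCAA-free sham hearts. The 7 mural markers were split, with Abcc9 lower, Cspg4 and Myh11 higher and a median log2 difference of 0.02. Several other sums were higher in BCAA-free TAC hearts without overlap. Atrial sums were 21408 to 25123 in BCAA-free TAC hearts, against 6797 to 15292 in BCAA-free sham hearts, and structured RNAs were 735 to 7202, against 283 to 366. Macrophage sums were 14573 to 19970 in BCAA-free TAC hearts, against 12825 to 14434 in BCAA-free sham hearts, mesothelial sums 754 to 940, against 398 to 698, adipocyte sums 358 to 917, against 205 to 338, and lymphocyte sums 760 to 791, against 581 to 688. The part of these markers and of structured RNAs in the calls of Lama5 and Nid1 was not tested.

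The difference between the diets in the response to TAC was then tested itself. With all 12 libraries, limma called 0 of the 10 (0 at an unadjusted p under 0.05), where 0.675% of the 17493 genes tested were called, and edgeR and DESeq2 called 0 (0 at an unadjusted p under 0.05 each), where they called 0.806% and 4.71% of all genes. The length-adjusted fit called 0 (0 at an unadjusted p under 0.05), where 1.39% were called, and without control diet TAC 3 it called 5, where 10.3% were called. The estimates of Lamb1 and Nid2 were both -0.36, with SE of 0.198 and 0.274. Without control diet TAC 3, 5 of the 10 had a lower response on the BCAA-free diet, where 4.94% of all genes had. The differences were -0.64 ± 0.161 for Nid2 (adjusted p = 0.0249), -0.58 ± 0.13 for Nid1 (adjusted p = 0.0156), -0.55 ± 0.124 for Lamb1 (adjusted p = 0.015), -0.52 ± 0.129 for Lamc1 (adjusted p = 0.0233) and -0.39 ± 0.106 for Lama4 (adjusted p = 0.0348). Hspg2 had -0.42 ± 0.134 (adjusted p = 0.0662), and Lamb2 had 0.00. Leaving out any 1 of the other 11 libraries called 0 of the 10. For Lama5 the responses were -0.51 ± 0.0812 on the BCAA-free diet and -0.50 ± 0.279 on the control diet, with a difference of -0.02 ± 0.353. Without control diet TAC 3, Lama5 had -0.13 ± 0.153 on the control diet and a difference of -0.38 ± 0.191 (adjusted p = 0.257).

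Ratios within a library do not depend on its scaling. The 3 ratios examined gave 12 comparisons by a two-sided exact permutation test, which cannot go below p = 0.10 with 3 libraries against 3, and the lowest value adjusted over the 12 was 0.171. Lamb1 to Lamb2, beta chains that can take the same place in a trimer, was 0.302, 0.261 and 0.283 in BCAA-free TAC, 0.23, 0.274 and 0.253 in BCAA-free sham, 0.427, 0.554 and 0.372 in control diet TAC and 0.331, 0.253 and 0.306 in control diet sham hearts. All 3 control diet TAC libraries, TAC 3 among them, had ratios above all others. On the log2 scale control diet TAC exceeded control diet sham by 0.59 (exact p = 0.1), BCAA-free TAC exceeded BCAA-free sham by 0.16 (exact p = 0.2) and BCAA-free TAC differed from control diet TAC by -0.66 (exact p = 0.1). Without control diet TAC 3 the 0.59 was 0.72 and the -0.66 was -0.79.

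Nid1 to Nid2 was 6.96, 7.55 and 6.97 in BCAA-free TAC, 6.99, 6.67 and 7.76 in BCAA-free sham, 5.02, 5.87 and 4.67 in control diet TAC and 5.99, 5.9 and 5.13 in control diet sham hearts. Every BCAA-free library lay above every control diet library, by 0.33 on the log2 scale in sham hearts and 0.47 in TAC hearts (exact p = 0.1 each). The 0.47 was 0.40 without control diet TAC 3. Lama4 to Lama2, a vessel chain over a muscle fibre chain, was 0.611, 0.629 and 0.616 in BCAA-free TAC, 0.604, 0.558 and 0.57 in BCAA-free sham, 0.968, 0.78 and 0.692 in control diet TAC and 0.732, 0.664 and 0.707 in control diet sham hearts. The log2 difference between diets was -0.38 in TAC and -0.28 in sham hearts, without overlap (exact p = 0.1 each). The -0.38 was -0.49 without control diet TAC 3. As a share of the 3 alpha chains per kb, Lama4 took 34.1% ± 0.978 in BCAA-free TAC, 29.1% ± 1.66 in BCAA-free sham, 41.9% ± 0.641 in control diet TAC and 35.1% ± 1.2 in control diet sham hearts (SD, n = 3 each). The 42.3%, 42.1% and 41.1% of the control diet TAC libraries were the highest of the 12, TAC 3 included. Lama5 took 31.2% ± 2.33, 39.2% ± 2.47, 25.2% ± 4.48 and 33.2% ± 3.83 in those 4 groups, and Lama2 took 31.6% to 34.7% on average. These shares were not tested. Principal transcripts have 6046 bases for Lama4, 9614 for Lama2 and 11388 for Lama5. Each of these 3 genes had its fewest normalized reads in control diet TAC 3 (5486 for Lama4, 7925 for Lama2 and 5392 for Lama5). The part of the length trend of that library in the shares and in the Lama4 to Lama2 ratio was not tested.

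**Figure D4:**
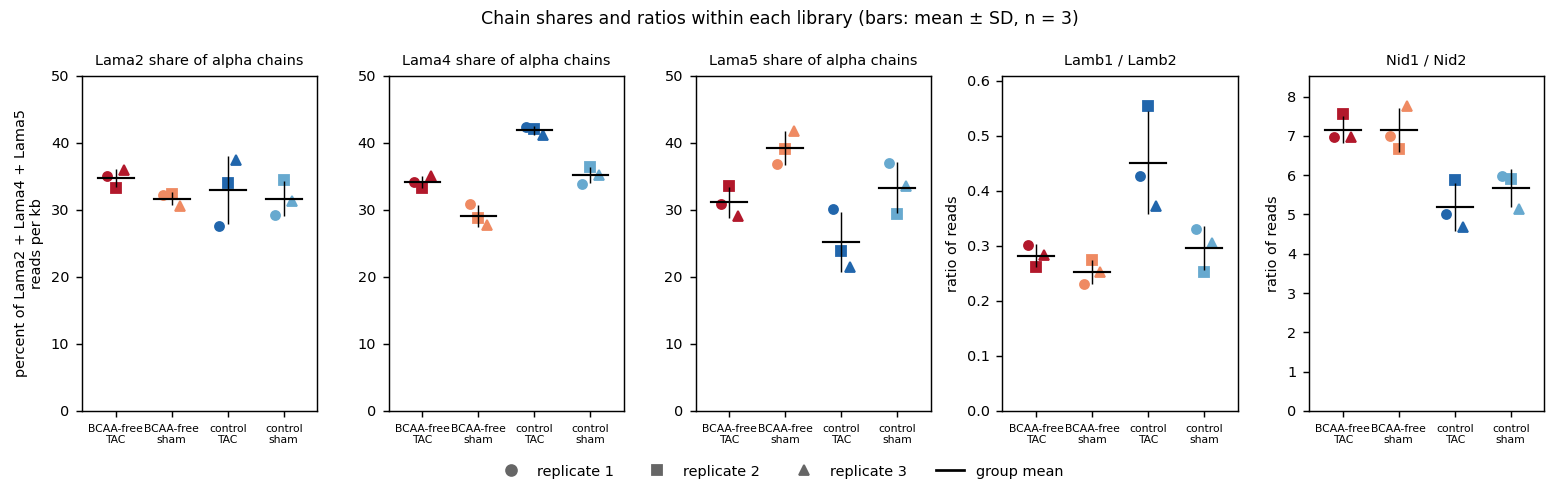
Share of each alpha chain among Lama2, Lama4 and Lama5 (percent of reads per kb) and the ratios of reads Lamb1 to Lamb2 and Nid1 to Nid2 (y axes, from 0), by group (x axis), with 1 symbol per replicate number and the group mean ± SD (n = 3). Control diet TAC libraries are highest for the Lama4 share (41.1% or more) and for Lamb1 to Lamb2 (0.372 or more), and BCAA-free libraries are highest for Nid1 to Nid2 (6.67 or more).

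Over the 12 libraries, the log2 values of Lama4 and Hspg2 followed the mean of the 10 most closely (Pearson r of 0.96 each), followed by Lamc1 (0.92), Nid1 (0.89), Lamb1 (0.87), Agrn (0.86), Nid2 (0.80) and Lama2 (0.73). Lama5 (0.35) and Lamb2 (0.25) followed it least. Of 14282 other genes ranked, Sh3pxd2a, Ankfy1 and Zmiz1 (r of 0.97 each) and Stk10 (0.96) were among the 5 most like the mean of the family. These correlations are descriptions, since the libraries share groups, depth and the length trend of control diet TAC 3. Each of the 10 genes is also part of the mean it was set against, which raises its r.

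The partners of these proteins were described by 7 lists, and their counts stand against the shares of all genes. Between diets in sham hearts 1.27% of all genes rose and 2.27% fell, and in TAC hearts 6.23% rose and 10.5% fell (16.1% and 17.3% without control diet TAC 3). With TAC on the control diet 9.17% rose and 14.8% changed (13.6% and 25.6% without TAC 3), and on the BCAA-free diet 3.31% rose and 4.41% fell. Several of the counts below are near those shares, and nothing is read from them about a list. Among the 8 basement membrane collagens, which form the network that nidogens join, 0 rose and 2 fell in BCAA-free against control diet sham hearts, with Col15a1 at -1.13 ± 0.137 (adjusted p = 0.0108) and Col18a1 at -0.70 ± 0.152 (adjusted p = 0.0449). In BCAA-free against control diet TAC hearts 4 of 8 fell, led by Col4a1 at -1.44 ± 0.212, Col15a1 at -1.87 ± 0.288 and Col4a2 at -1.10 ± 0.207, and 7 of 8 fell without control diet TAC 3. In TAC against sham hearts on the control diet 4 of 8 rose with all libraries, among them Col18a1 at 1.32 ± 0.211, Col15a1 at 1.14 ± 0.267 and Col4a5 at 0.49 ± 0.117, and 6 of 8 without TAC 3. On the BCAA-free diet 1 of 8 rose with TAC, Col18a1 at 0.97 ± 0.147. The medians of the collagens in these comparisons, in this order and with all libraries, were -0.52, -0.69, 0.63 and 0.23. When the difference between diets in the TAC response was tested itself, 0 of 8 collagens passed, with all libraries and without control diet TAC 3. In the other lists 0 genes passed with all libraries. Without control diet TAC 3, 3 of 10 heparan sulfate enzymes, 2 of 13 other basement membrane proteins, 1 of 8 receptors and 1 of 4 other laminin chains passed. All of these had a lower response on the BCAA-free diet, as 4.94% of all genes had. Col4a1 had 28741, 20632 and 28395 normalized reads in BCAA-free TAC, 20662, 22315 and 20469 in BCAA-free sham, 78864, 87585 and 49470 in control diet TAC and 44573, 26742 and 44647 in control diet sham hearts, so that control diet TAC was above every other library even with TAC 3.

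Of the 8 measured laminin and agrin receptors, Itga6, the alpha subunit of a laminin-binding integrin, was at -0.79 ± 0.112 in BCAA-free against control diet sham hearts (adjusted p = 0.013) and at -0.79 ± 0.148 in TAC hearts (adjusted p = 0.00697). It was the only receptor to fall in sham hearts, and Itgb1 (-0.41 ± 0.121, adjusted p = 0.0432) fell beside it in TAC hearts. With TAC, 0 of 8 receptors passed on either diet, and without control diet TAC 3 Itgb1 (0.40) and Itgb4 (0.66) rose on the control diet. Of the 10 genes of the dystrophin complex, which anchors laminin to the muscle cytoskeleton, 3 rose on the BCAA-free diet in sham hearts, Sgcd (0.52) and Sgcb (0.25) among them, and 3 in TAC hearts, Dtna (0.44) and Sgca (0.44) among them. With TAC on the BCAA-free diet 3 fell, Sgcd at -0.74 ± 0.072 (adjusted p = 0.000285) and Sgcb at -0.22 among them, and 1 rose, while on the control diet 0 of 10 passed (1 rose and 1 fell without TAC 3).

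Among 13 other basement membrane proteins, Sparc, a collagen-binding protein, was at -1.04 ± 0.16 in BCAA-free against control diet sham hearts and at -1.76 ± 0.2 in TAC hearts, and with TAC it rose by 0.79 ± 0.124 on the BCAA-free diet and by 1.51 ± 0.219 on the control diet. Papln (-1.10 ± 0.148) and Smoc2 (-0.42 ± 0.0732) fell with it in sham hearts. Frem1 rose by 3.15 ± 0.511 with TAC on the control diet, where it had 491, 584 and 132 normalized reads in TAC and 28.2, 54.6 and 32.1 in sham hearts. Egflam (pikachurin, a ligand of dystroglycan) fell with TAC on both diets, by 0.40 ± 0.103 on the BCAA-free and by 0.85 ± 0.109 on the control diet. Of 10 heparan sulfate enzymes, 1 passed upward with TAC on each diet, Sulf1 (0.44 on the BCAA-free and 1.02 on the control diet), which trims sulfate groups from chains such as those of perlecan, and Extl3 fell with TAC on the BCAA-free diet (-0.22, adjusted p = 0.0459). On the BCAA-free diet 0 of the 10 enzymes passed in sham hearts and 2 fell in TAC hearts, Sulf1 at -0.56 and Hs2st1 at -0.41. Of 4 measured other laminin chains, Lamb3 was higher on the BCAA-free diet (0.50 in sham and 0.50 in TAC hearts) and lower with TAC on it (-0.61) and on the control diet (-0.60). Of 10 measured genes that glycosylate dystroglycan, 0 passed between diets with all libraries in limma, and 3 rose in TAC hearts without control diet TAC 3. Without control diet TAC 3, in TAC hearts on the BCAA-free diet 5 of 10 enzymes fell, where 17.3% of all genes fell and 33.4% changed, 1 of the other basement membrane proteins rose and 5 fell, 5 genes of the dystrophin complex rose and 1 fell, and 1 of the other laminin chains rose and 1 fell. With TAC on the control diet and without that library, 4 of 10 enzymes rose, where 13.6% of all genes rose and 25.6% changed, 4 of the other basement membrane proteins rose and 1 fell, and 1 other laminin chain rose and 1 fell.

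**Figure D5:**
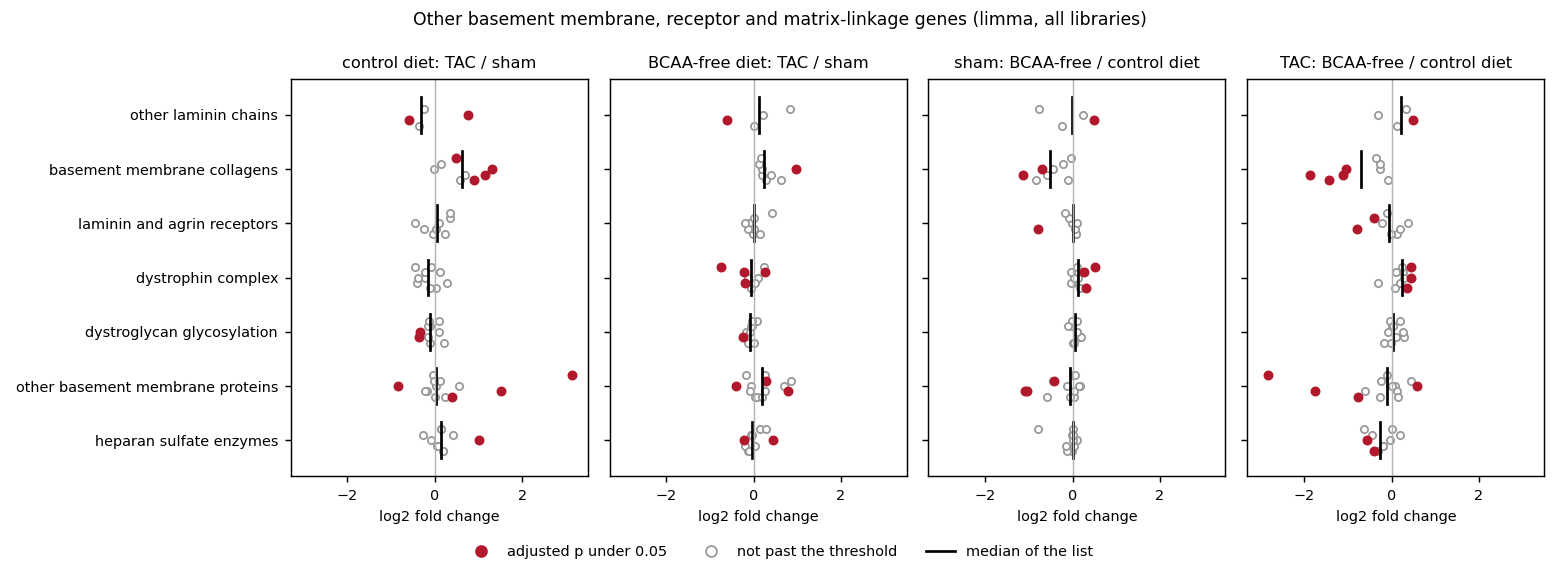
Log2 fold change (x axis) of the genes of 7 lists of partners (rows; 1 point per gene, spread vertically for legibility) in 4 comparisons (panels), red where the adjusted p was under 0.05, with the median of each list as a black bar. The collagens have medians of 0.63 and 0.23 with TAC and of -0.52 and -0.69 with the BCAA-free diet, while the receptor medians lie between -0.06 and 0.05.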

How the data were processed

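Poly(A) RNA from Trizol extracts of heart was sequenced as 12 libraries, per the labels. Tools listed are STAR 2.5.2b, Trimmomatic 0.36, DESeq2 and Subread 1.5.2, with GRCm38 and mm10 as builds, per the submitters' processing notes. The annotation behind the counts is not given in the sources used here. Deposited by the authors are 4 tables, each of 6 libraries from groups that share a diet or a surgery. Per the file headers, each holds a normalized count signal per library, a log2 fold change and a p-value with its adjusted p-value. The deposited signal is reads divided by a size factor set in each table: 100% of 431838 values were whole reads within 0.0001 read, and each library's reads matched between the separate tables that hold it (212169 equal, 0 different). Every gene listed has at least 61 reads over 6 libraries.

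Each pair of groups was tested in its own table with limma 3.58.1 (trend, robust; R 4.3.3) on log2(value + 1), for genes with a mean of at least 10, with Benjamini-Hochberg adjustment over all of them and a threshold of 0.05. Fold changes are on that log2(value + 1) scale. The difference of TAC responses used all 12 libraries. Levels were scaled by size factors from the 12 libraries together. Adjusted p-values are from limma unless another tool is named. Count tests on the recovered reads were alternatives: edgeR 4.0.16 and DESeq2 1.42.0 called 2763 and 3628 genes with TAC on the control diet, 1412 and 1893 with TAC on the BCAA-free diet, 700 and 1522 between diets in sham and 3059 and 3842 in TAC hearts. Other alternatives were another pseudocount, no filter, other size factors, a replicate block, a fit of all libraries, each library left out and, added later, a length adjustment.

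Groups and replicate numbers came from the labels. No libraries agreed within sampling noise (chi-square per gene of 14.7 or more). The 10 genes, the 7 lists of partners and the markers of other cell types were chosen with earlier results of these data known. Of each partner list, up to 3 called genes with the smallest p in a comparison are named, and other genes were named after their values were seen. Some genes of these lists are not reported here. Transcript lengths are those of GENCODE vM21 on GRCm38 (18547 genes found).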

Additional observations from a re-analysis of the deposited data

How the results depend on the processing

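The counts for the 10 genes were the same with a pseudocount of 5, with no filter on low values, with TMM factors and with jointly set size factors. DESeq2 called 1, 3, 7 and 5 of them with TAC on the control diet, with TAC on the BCAA-free diet, between diets in sham and in TAC hearts, and 1522 and 824 genes in all between diets in sham hearts and for the difference of responses. The fit of all 12 libraries called 1, 0, 0 and 4 in that order, and 4404, 302 and 149 genes in the first 3. The share of all genes that goes with the 4 is not given here, and nothing is read from that count. Replicate numbers are shared across groups but are not known to pair the libraries, whose deviations correlated at -0.35 to 0.02 within a number. With a replicate block, 1 of the 10 and 623 genes were called with TAC on the BCAA-free diet. The block gave 3 and 276 between diets in sham hearts, and 50 genes for the difference of responses.

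Leaving out 1 library gave 0 to 6 of the 10 and 1356 to 4679 genes with TAC on the control diet, 1 to 3 and 543 to 1253 with TAC on the BCAA-free diet, 0 to 6 and 50 to 1071 between diets in sham hearts, 1 to 7 and 1192 to 6025 between diets in TAC hearts, and 0 to 5 and 16 to 1755 for the difference of responses. The upper ends for both comparisons with control diet TAC and for the difference were reached without control diet TAC 3. The length adjustment, added after the data were seen, gave 4 of the 10 between diets in TAC hearts and 242 genes for the difference of responses; with control diet TAC 3 also left out it gave 6, 6 and 5 of the 10 with TAC on the control diet, between diets in TAC hearts and for the difference, and 4885, 5982 and 1789 genes. The cause of these shifts was not tested, beyond the fewer libraries used.

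Directions that turned were all of genes not called in that comparison with all libraries. Under the length adjustment, Lama2 had 0.16 and Agrn 0.01 with TAC on the control diet, and 0.22 and 0.14 with control diet TAC 3 also left out. With TAC on the BCAA-free diet the adjustment gave 0.10 for Lama2 and 0.02 for Lamb1, and between diets in TAC hearts it gave -0.11 for Lama5 without control diet TAC 3. TMM factors gave 0.00 for Lama2 between diets in TAC hearts. With 1 library left out, log2 differences with TAC on the control diet ranged from -0.21 to 0.12 for Lama2, from -0.03 to 0.45 for Hspg2 and from -0.26 to 0.10 for Agrn. With TAC on the BCAA-free diet they ranged from -0.02 to 0.11 for Lama4, from -0.08 to 0.02 for Lamb1 and from -0.05 to 0.12 for Hspg2. Between diets they ranged from -0.05 to 0.02 for Lama2 and from -0.08 to 0.01 for Lamb2 in sham hearts, and in TAC hearts from -0.18 to 0.15 for Lama2, from -0.15 to 0.47 for Lama5, from -0.02 to 0.15 for Lamb2 and from -0.23 to 0.13 for Agrn. For the difference of responses they ranged from -0.17 to 0.15 for Lama2, from -0.39 to 0.03 for Lama4, from -0.38 to 0.24 for Lama5, from -0.58 to 0.03 for Nid1, from -0.42 to 0.06 for Hspg2 and from -0.01 to 0.35 for Agrn.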
